A study of Mus musculus with 12 samples.

Results

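The genes examined here encode the machinery that cuts cytosolic proteins into peptides and loads them onto MHC class I molecules, in tumor-associated macrophages (TAMs) sorted from subcutaneous B16-F10 mouse melanoma. They were 10 genes chosen by name, out of the 55401 genes listed in each of 2 tables of read counts. The choice was made with earlier results of these data known. H2-K1 and H2-D1 encode the classical class I heavy chains and B2m their light chain. Tap1, Tap2 and Tapbp serve peptide transport and loading, Psmb8, Psmb9 and Psmb10 encode the catalytic subunits of the immunoproteasome, and Nlrc5 encodes a transactivator. Each symbol stood on 1 row of each table.

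Bulk RNA-seq libraries came from 4 groups of 3 samples. WT TAMs were from AMPKfl/fl mice and AMPK-KO TAMs from AMPKfl/flLyz2cre/cre mice. Both groups therefore carried the floxed AMPK allele, and both were sorted on day 15 after implantation by the study's methods. Early TAMs (day 8) and late TAMs (day 15) were from mice labelled WT, and no group received a treatment. The genotype fields of AMPK-KO replicates 2 and 3 read Lyz3cre/cre and Lyz4cre/cre, while all 3 titles give Lyz2cre/cre. The methods place all mice on a C57BL/6 background, used mice at an age of 5 weeks, describe the C57BL/6 mice they bought as females, and define TAMs as CD45+CD11b+Ly6C-Ly6G-F4/80+. Lyz2cre is active in myeloid cells at large and not in macrophages alone. The labels do not say whether replicates came from separate animals, so p-values set each difference against the spread among these samples. That spread may not be the spread between animals.

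Classical class I molecules present peptides on nearly all nucleated cells to CD8 T cells. Peptides made by the proteasome are carried into the endoplasmic reticulum by the TAP1-TAP2 transporter and handed to the heavy chain and B2m by the loading complex, to which tapasin (Tapbp) belongs. Interferon gamma is known to induce the whole set, with Psmb8, Psmb9 and Psmb10 replacing the constitutive subunits encoded by Psmb5, Psmb6 and Psmb7, and with NLRC5 acting at class I promoters. Macrophages are cells in which this machinery is known to be well expressed.

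Total counts were 71019494 to 81671067 in WT, 73669620 to 80911139 in AMPK-KO, 77155066 to 84470374 in early and 79623704 to 82499295 in late libraries. The macrophage label was checked with 8 markers, which were counted in every group and summed to 10880.3 to 12262 CPM (counts scaled to library size) in WT, 10935 to 11329.8 in AMPK-KO, 8423 to 10745 in early and 11377 to 11535 in late libraries. Prkaa1, the gene of the catalytic subunit AMPKα1, had 68.8, 62.8 and 63.3 CPM in WT and 47.0, 40.9 and 40.8 CPM in AMPK-KO libraries. It was lower in every AMPK-KO library, by a log2 fold change of -0.60 ± 0.07 (adjusted p = 0.000226, edgeR). Lyz2, the locus that carries cre, had 9.16 to 13.5 CPM in both WT and AMPK-KO libraries, against 2476 to 3009 CPM in early and 1092 to 1129 CPM in late ones. The Lyz2cre allele is a knock-in that disrupts Lyz2, and the labels of the WT libraries name no cre, so the low Lyz2 level in WT goes against that label. Whether the WT mice carried cre was not tested, the 3 WT and 3 AMPK-KO libraries did not differ in Lyz2 beyond their spread (log2 fold change 0.07, 95% interval -0.33 to 0.47), and every AMPK-KO against WT difference below is one between libraries named by their labels. The summed counts of 4 Y-linked genes were 9229 to 12183 in WT and AMPK-KO, 3435 to 4035 in early and 0 to 4 in late libraries, so that the sex of the mice and the tumor stage cannot be told apart. The methods name female mice for the implants, and the Y-linked counts in WT, AMPK-KO and early libraries go against cells from females alone. The source of these reads was not tested.

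Of the 10 genes, 7 lie on mouse chromosome 17, in and around the MHC. On build GRCm38 (GENCODE M21), Tapbp (chr17:33915899-33929292, plus strand) and H2-K1 (chr17:33996017-34000347, minus strand) are separated by 66724 bases. Psmb9 (chr17:34181987-34187764, minus strand), Tap1 (chr17:34187553-34197225, plus strand), Psmb8 (chr17:34197721-34201454, plus strand) and Tap2 (chr17:34203527-34216321, plus strand) follow each other within 34335 bases. The Psmb9 and Tap1 gene models share 212 bases on opposite strands, and Psmb8 begins 495 bases after the end of Tap1. The strand setting of the read counting is not given in the sources used here, so reads from the shared bases cannot be assigned to Psmb9 or Tap1. B2m (chr2:122147686-122153083, plus strand), Nlrc5 (chr8:94434356-94527272, plus strand) and Psmb10 (chr8:105935735-105938444, minus strand) lie elsewhere. The identifier of H2-D1 differs in version between the tables and GENCODE M21, so its gene coordinates are not given.

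The promoters of the heavy chains, B2m and the Tap1-Psmb9 pair are shown, picked with the fold changes in AMPK-KO TAMs known. A link between promoter sequence and fold change was not tested. RefSeq promoters (GRCm38.p6) were matched for 8 of the 10 genes, the others being Tap2 and Nlrc5. The 250 bases before each start were searched on both strands for 5 motifs: the interferon regulatory factor element AANNGAAA, the kappaB element, the interferon gamma activation site TTCNNNGAA, the cyclic AMP response core TGACG and the CCAAT box. Capitals below mark matches to AANNGAAA, kappaB, TGACG and CCAAT on either strand. The H2-K1 window is chr17:34000348-34000507 (minus strand), that of H2-D1 is chr17:35262874-35263033 (plus strand) and that of B2m is chr2:122147507-122147686 (plus strand). The last is chr17:34187331-34187555, the 225 bases between the RefSeq starts of Psmb9 and Tap1, written on the Tap1 strand.
H2-K1: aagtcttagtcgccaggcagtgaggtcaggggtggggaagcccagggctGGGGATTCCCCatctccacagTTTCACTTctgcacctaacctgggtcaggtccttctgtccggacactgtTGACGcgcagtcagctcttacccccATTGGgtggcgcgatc
H2-D1: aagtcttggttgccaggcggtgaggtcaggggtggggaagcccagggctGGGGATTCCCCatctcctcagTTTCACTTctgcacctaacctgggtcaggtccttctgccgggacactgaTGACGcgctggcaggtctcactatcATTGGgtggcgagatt
B2m: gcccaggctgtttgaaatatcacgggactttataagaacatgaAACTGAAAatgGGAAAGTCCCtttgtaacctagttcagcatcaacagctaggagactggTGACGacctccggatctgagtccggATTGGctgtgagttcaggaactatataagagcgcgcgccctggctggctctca
Tap1-Psmb9: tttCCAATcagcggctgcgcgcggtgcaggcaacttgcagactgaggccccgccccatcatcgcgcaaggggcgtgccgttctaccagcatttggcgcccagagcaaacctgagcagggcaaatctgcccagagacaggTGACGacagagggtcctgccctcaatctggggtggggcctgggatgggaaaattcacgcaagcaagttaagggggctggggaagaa

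The H2-K1 and H2-D1 windows, cut at different distances from the start, had 144 of 160 bases in common. Counted from the RefSeq start of each gene, the H2-K1 window began at base -160 and the H2-D1 window at base -220. A kappaB match, an AANNGAAA match, a TGACG match and a CCAAT match followed each other in this order in both. B2m held all 4 motifs as well, with AANNGAAA ahead of kappaB. The kappaB matches of H2-K1 and H2-D1 are each a pair that overlaps by all but the outer bases.

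Across the 8 genes, AANNGAAA and kappaB were each matched in 3, namely H2-K1, H2-D1 and B2m. Over all 32851 promoters of the same length, they were matched in 21.3% and 3.90%. H2-K1 and H2-D1, whose windows share most bases, are not independent matches. TGACG was matched in 5 of the 8 (17.8% of all promoters) and CCAAT in 6 (33.8%), with Tap1 and Psmb9 sharing the same bases. TTCNNNGAA was matched in Psmb8 alone (7.02%). Of the constitutive subunits, Psmb5 and Psmb6 had promoters to search, and both held TGACG, while Psmb6 also held AANNGAAA. These are matches of letters in a short window and say nothing on which factor binds there.

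In every group the order of the levels began with B2m, H2-D1 and H2-K1. Per kb of exon, WT TAMs had 3545 ± 286 CPM per kb of B2m (mean ± SD, n = 3), 1332 ± 88.9 of H2-D1 and 918 ± 35.6 of H2-K1, and these 3 did not overlap. Tapbp followed in WT with 114 ± 3.90 CPM per kb, then Psmb10 with 93.4 ± 9.38, Psmb8 with 82.6 ± 8.25 and Tap1 with 67.3 ± 0.607. Psmb10 and Psmb8 overlapped in their WT libraries, as did Tap2 (41.8 ± 2.89 CPM per kb) and Psmb9 (39.6 ± 4.81). Nlrc5 was the lowest of the 10 in each group, at 16.6 ± 1.33 CPM per kb in WT and 27.2 ± 0.828 in AMPK-KO TAMs. Levels per kb rest on the summed exon length of each gene model, and the counting of reads that fit several near-identical class I heavy chain genes is not given in the sources used here, which makes H2-K1 and H2-D1 less certain.

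**Figure D1:**
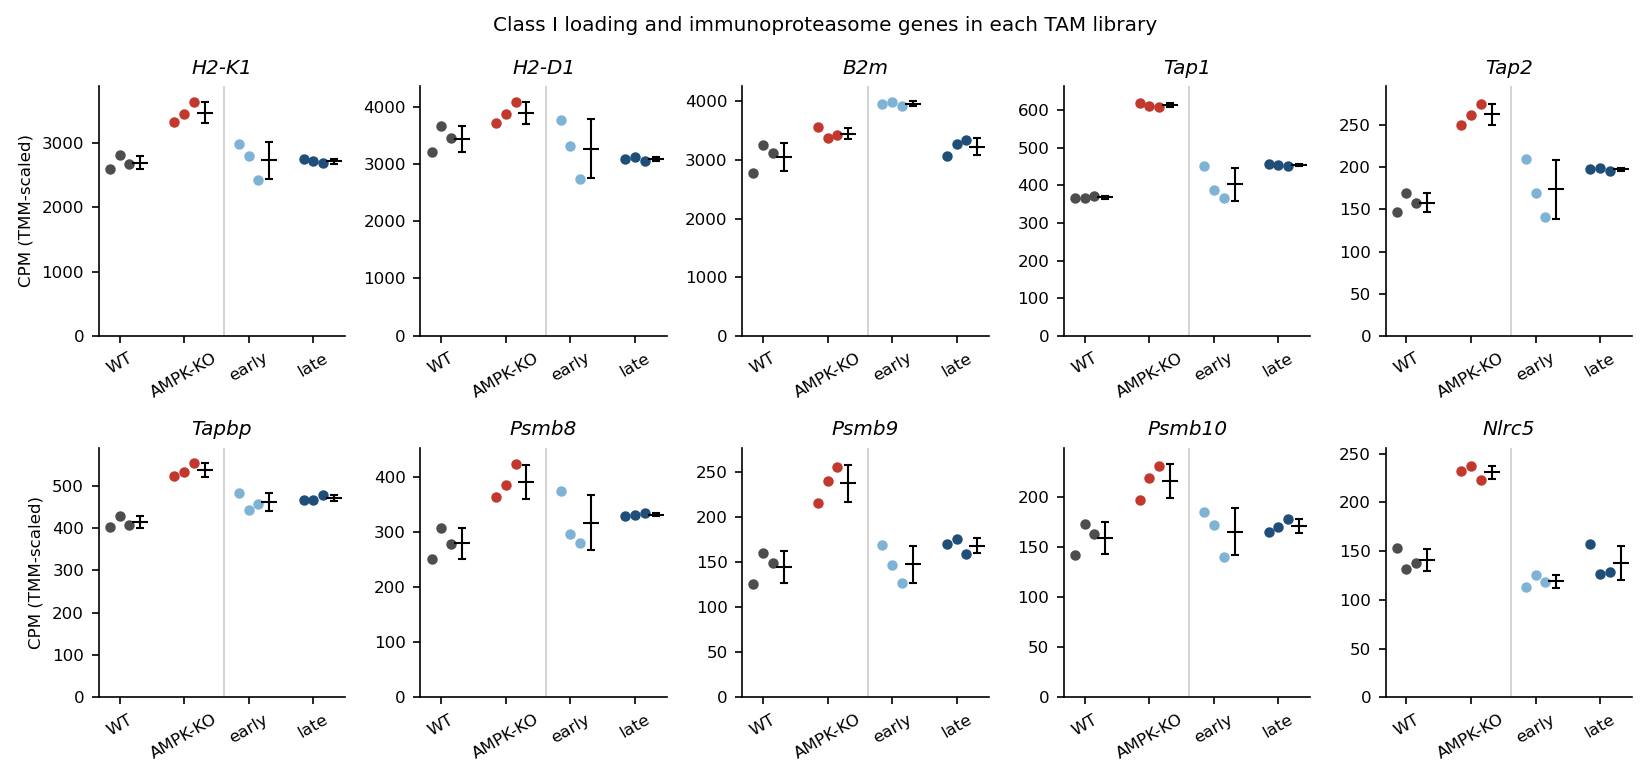
CPM scaled by TMM (y axis, from 0) of each of the 10 genes in the 12 libraries (points) by group (x axis), with the mean ± SD of 3 libraries in black; the grey line separates the 2 tables, which were scaled apart. All 3 AMPK-KO libraries lie above all 3 WT libraries for each gene, while early and late libraries overlap for 7 of the 10.

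The first comparison asked how the expression of these genes differed between day 15 TAMs labelled AMPK-KO and WT. All 10 genes were higher in AMPK-KO than in WT TAMs at an adjusted p under 0.05, and in all 10 the 3 AMPK-KO libraries lay above the 3 WT libraries. Tap1, Tap2, Psmb9 and Nlrc5 rose by 0.71 to 0.74 on the log2 scale (1.64- to 1.67-fold), Psmb8, Psmb10, Tapbp and H2-K1 by 0.37 to 0.48, and H2-D1 and B2m by 0.18 (1.13-fold). Over all 17532 genes tested, 11.3% were called higher, 9.78% lower and 21.1% in either direction, and 18.8% had AMPK-KO libraries that all lay above the WT ones. Because the 10 genes were chosen with earlier results of these data known, setting them against these shares is no test of the set. With DESeq2, a second tool, 2221 of all genes were called higher and 2054 lower, and 5715 had an unadjusted p under 0.05 with edgeR. The median log2 fold change was 0.46 over the 10 genes and -0.00 over all genes tested. In bulk RNA, a change in the share of cells that express a gene and a change in its RNA per cell cannot be told apart.

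Among the heavy chains, H2-K1 had 2603, 2809.8 and 2679.6 CPM in WT and 3323, 3457 and 3643 CPM in AMPK-KO libraries. Every AMPK-KO library was well above the highest WT one, and the log2 fold change was 0.37 ± 0.04 (SE, adjusted p = 0.000228, edgeR). H2-D1 had 3198, 3656 and 3447 CPM in WT against 3713, 3872 and 4083 CPM in AMPK-KO libraries. Its lowest AMPK-KO library was only slightly above its highest WT library, WT2, and the log2 fold change was 0.18 ± 0.05 (adjusted p = 0.0353, edgeR).

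B2m, the light chain of every class I molecule, had 2777, 3257 and 3112 CPM in WT and 3552, 3372 and 3419 CPM in AMPK-KO libraries. The lowest value was in WT1, and the log2 fold change was 0.18 ± 0.05 (adjusted p = 0.0428, edgeR). The calls of these last 2 genes depended on single libraries. H2-D1 was no longer called without WT1 (0.13, adjusted p = 0.0719), WT3 (0.18, 0.119), KO2 (0.18, 0.107) or KO3 (0.14, 0.117), nor without the filter on low counts (0.17, 0.104). B2m was no longer called without WT1 (0.11, adjusted p = 0.0526), WT3 (0.19, 0.102), KO1 (0.16, 0.147), KO2 (0.19, 0.0948) or KO3 (0.18, 0.0839), nor without that filter (0.17, 0.127). The other 8 genes were called with each of the 6 libraries left out.

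In peptide transport and loading, Tap1 gave the tightest groups of the set. It had 368, 365 and 372 CPM in WT and 619.7, 612 and 609 CPM in AMPK-KO libraries, a log2 fold change of 0.74 ± 0.04 (adjusted p = 9.47e-07, edgeR). Tap2, the partner of Tap1 in the transporter, had 147, 169 and 158 CPM in WT and 250.5, 262 and 275 CPM in AMPK-KO libraries. The log2 fold change of Tap2, 0.73 ± 0.06 (adjusted p = 1.83e-05, edgeR), was close to that of Tap1, and their 95% intervals were 0.60 to 0.87 and 0.65 to 0.82. Tapbp had 402, 429 and 409 CPM in WT against 524, 533 and 555 CPM in AMPK-KO libraries. Its log2 fold change was 0.38 ± 0.05 (adjusted p = 0.000215, edgeR), with an interval of 0.28 to 0.48 that lay below those of both transporter genes.

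All 3 immunoproteasome subunits rose. Psmb8 had 252, 307 and 278 CPM in WT and 363, 385 and 423 CPM in AMPK-KO libraries (log2 fold change 0.48 ± 0.08, adjusted p = 0.00144, edgeR). Psmb9 had 126, 160.3 and 148 CPM in WT and 216, 239.9 and 256 CPM in AMPK-KO libraries (0.71 ± 0.09, adjusted p = 0.000292, edgeR). Psmb10 had 142, 173 and 163 CPM in WT and 198, 219 and 231 CPM in AMPK-KO libraries (0.44 ± 0.08, adjusted p = 0.0031, edgeR). For all 3, WT1 was the lowest WT library, KO1 the lowest AMPK-KO library and KO3 the highest.

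Nlrc5, the transactivator, had 154, 132 and 138 CPM in WT and 232, 237 and 223 CPM in AMPK-KO libraries, a log2 fold change of 0.71 ± 0.06 (adjusted p = 2.43e-05, edgeR). Unlike the subunits, its highest WT library was WT1 and its lowest AMPK-KO library KO3. Across the 10 genes, WT1 was the lowest WT library for 8 and WT2 the highest for 8, while KO1 was the lowest AMPK-KO library for 7 and KO3 the highest for 7. The 95% intervals of Tap1, Tap2, Psmb9 and Nlrc5 lay wholly above those of H2-K1, Tapbp, H2-D1 and B2m, and those of Psmb8 (0.31 to 0.66) and Psmb10 (0.26 to 0.62) spanned the gap.

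**Figure D2:**
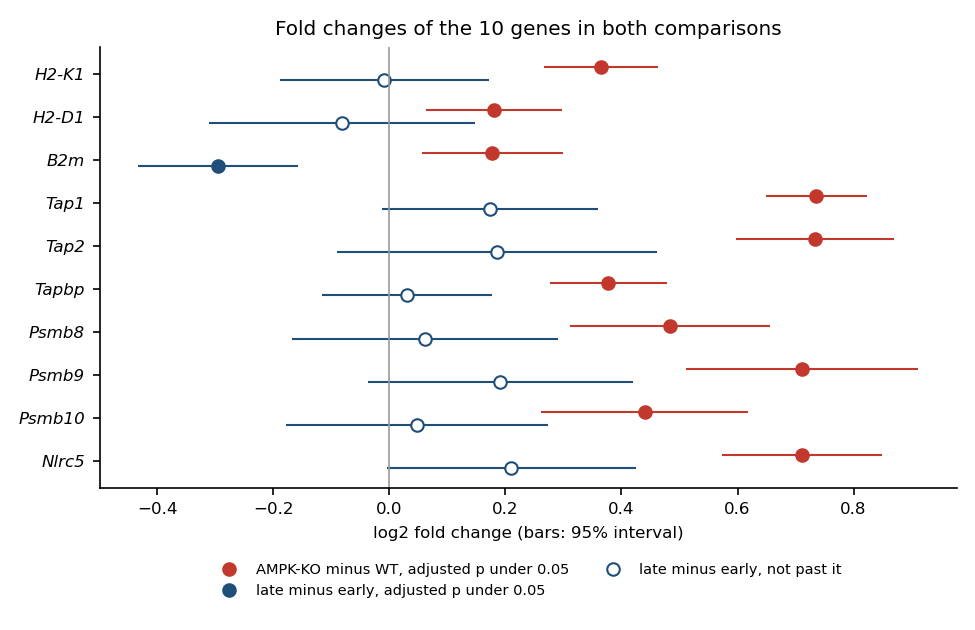
Log2 fold change (x axis) of each of the 10 genes (y axis) in AMPK-KO against WT (red) and in late against early (blue), with bars for the 95% interval and filled points for an adjusted p under 0.05. All 10 red points are filled and lie between 0.18 and 0.74, whereas B2m is the single filled blue point, at -0.29.

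The immunoproteasome subunits replace constitutive ones within the same particle, so each was set against its counterpart within each library. Psmb6 had 176, 203 and 191 CPM in WT and 139, 146 and 152 CPM in AMPK-KO libraries and was lower in each of the latter (log2 fold change -0.38 ± 0.06, adjusted p = 0.00165, edgeR). Psmb5 was also lower (-0.34 ± 0.08, adjusted p = 0.00997, edgeR), from 107, 129.6 and 121 CPM in WT to 88.5, 91.8 and 101 CPM in AMPK-KO libraries. Psmb7 did not pass the test (-0.11, 95% interval -0.23 to 0.02, adjusted p = 0.222, edgeR).

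Per kb of exon, the ratio of Psmb8 to Psmb5 was 0.627, 0.631 and 0.613 in WT and 1.09, 1.11 and 1.11 in AMPK-KO libraries. Each group was tight, and the ratio was 1.77 times as high in AMPK-KO TAMs. As counts not divided by length, it was 2.31 to 2.37 in WT and 4.10 to 4.19 in AMPK-KO libraries. The size of each ratio per kb rests on the summed exon lengths, whereas its fold between groups does not. The ratio of Psmb9 to Psmb6 was 0.366, 0.404 and 0.397 in WT and 0.796, 0.840 and 0.860 in AMPK-KO libraries, 2.14 times as high. The ratio of Psmb10 to Psmb7 was 2.21, 2.45 and 2.44 in WT and 3.26, 3.36 and 3.78 in AMPK-KO libraries, 1.46 times as high. In log2 terms the 3 differences were 0.83 ± 0.02, 1.10 ± 0.05 and 0.55 ± 0.08 (SE, n = 3 per group). None of the 3 overlapped between groups, and each had p = 0.1 in a two-sided exact permutation test, the smallest that 3 against 3 libraries can give (0.15 after Benjamini-Hochberg adjustment over the 6 ratio tests of both comparisons).

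The ratio of heavy to light chain, chosen after the fold changes had been seen, differed less. H2-K1 to B2m was 0.274, 0.253 and 0.252 per kb in WT and 0.274, 0.300 and 0.312 in AMPK-KO libraries (exact permutation p = 0.2, adjusted p = 0.267 over 4 such tests). H2-D1 to B2m averaged 0.376 ± 0.0074 in WT and 0.377 ± 0.0254 in AMPK-KO libraries (SD, n = 3, exact permutation p = 1.0). The groups overlapped in both ratios.

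**Figure D3:**
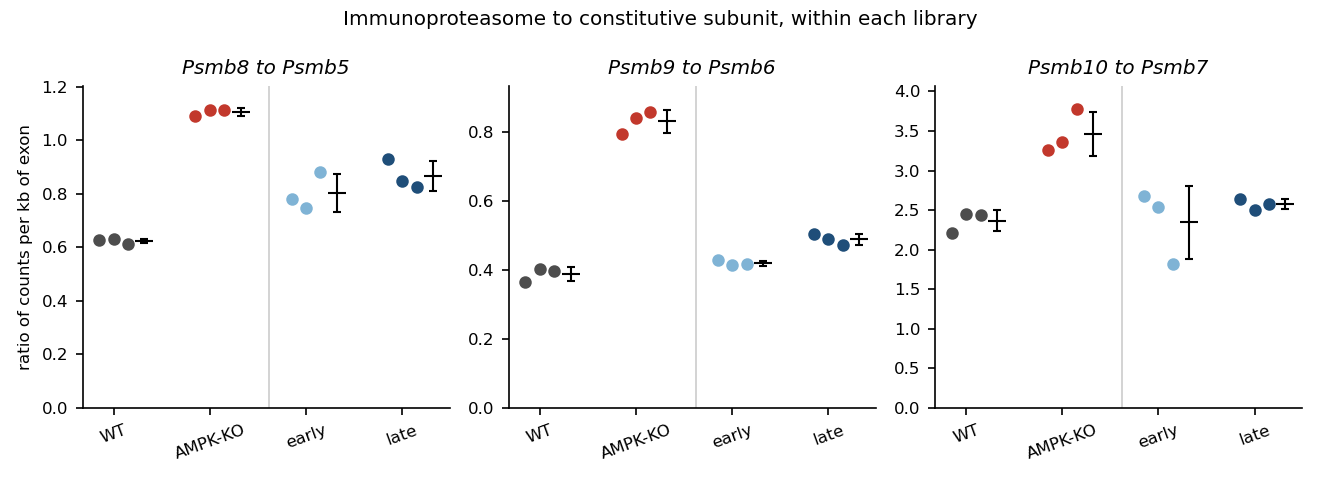
Ratio of each immunoproteasome subunit to the constitutive subunit it replaces, as counts per kb of exon (y axis, from 0), in each library (points) by group (x axis), with the mean ± SD of 3 libraries in black. AMPK-KO libraries lie above WT libraries in all 3 ratios, and late libraries lie above early ones for Psmb9 to Psmb6.

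Most other proteasome genes did not pass the test. Of 11 other subunits of the 20S core, edgeR called 0 (0 at an unadjusted p under 0.05, and 0 with DESeq2), with a median log2 fold change of 0.01. Of 18 subunits of the 19S regulatory particle, DESeq2 called 8 lower and edgeR 4, namely Psmd8 (-0.31), Psmd12 (-0.31), Psmc1 (-0.25) and Psmc5 (-0.19), and 0 rose with either edgeR or DESeq2. Among 9 activators and assembly factors, Psme1 and Psme2 rose and the other 7 did not pass the test. These genes encode the PA28 activator, which is also interferon-inducible, and Psme1 went from 233, 283 and 255 CPM in WT to 340.3, 345 and 366 CPM in AMPK-KO libraries (log2 fold change 0.45 ± 0.07, adjusted p = 0.000954, edgeR). Psme2 showed a log2 fold change of 0.40 ± 0.07 (adjusted p = 0.00348, edgeR).

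Of 10 nonclassical class I and class I-like chains, 8 rose, 0 fell by either tool and the median log2 fold change was 0.58. H2-Q6 had 134, 138 and 137 CPM in WT and 242, 257 and 264 CPM in AMPK-KO libraries (log2 fold change 0.90 ± 0.05, adjusted p = 1.01e-06, edgeR). H2-Q7 (0.67 ± 0.06), H2-T23 (0.67 ± 0.06), which encodes the Qa-1 chain that presents leader peptides to NK cell receptors, and H2-T22 (0.61 ± 0.05) rose as well. Their log2 fold changes were larger than those of H2-K1 and H2-D1, although reads may be shared among these sequences. Of 4 loading partners, edgeR called 1 higher and 2 lower, and DESeq2 1 higher and 3 lower. Tapbpl, a tapasin relative that edits peptides, rose by 0.66 ± 0.07 on the log2 scale (adjusted p = 6.9e-05, edgeR), whereas Calr, the chaperone calreticulin, was lower (-0.42 ± 0.04, adjusted p = 6.71e-05, edgeR), as was the disulfide isomerase gene Pdia3 (-0.21 ± 0.04, adjusted p = 0.00327, edgeR). Of 7 peptide-trimming genes, the aminopeptidase genes Lap3 (0.38), Lnpep (0.57) and Erap1 (0.28) rose, and the other 4 did not pass the test with edgeR. DESeq2 called 3 higher and 1 lower, and the lowest log2 fold change among the 7 was -0.34.

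Of 15 transcriptional regulators of class I genes, 8 rose and 0 fell by either tool. Irf1, an interferon-induced activator of class I and immunoproteasome promoters, had 142, 145 and 144 CPM in WT and 310.2, 288 and 298 CPM in AMPK-KO libraries, a log2 fold change of 1.06 ± 0.05 (adjusted p = 3.3e-07, edgeR). Irf8 (0.40), Nfkb1 (0.40) and Irf2 (0.45) were among the others that rose. Rfx5, a subunit of the RFX complex at MHC promoters, showed a log2 fold change of 0.38 ± 0.12 and did not pass the test (adjusted p = 0.0516, edgeR).

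Of 10 interferon, receptor and proximal signaling genes, 5 rose and 0 fell by either tool. Ifng, made mainly by T and NK cells, was scarce but had 1.89, 3.23 and 3.36 CPM in WT and 9.42, 10.3 and 9.0 CPM in AMPK-KO libraries (log2 fold change 1.76 ± 0.20, adjusted p = 0.000148, edgeR). The feedback inhibitor Socs1 (1.50 ± 0.10), the receptor gene Ifngr1 (0.37 ± 0.05) and the kinase gene Jak2 (0.53 ± 0.07) also rose.

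Markers of other cells moved between WT and AMPK-KO libraries, and their part in the rise of the 10 genes was not tested. T cell markers were higher for 7 of 8 and summed to 176 to 184 CPM in AMPK-KO against 92.2 to 108 CPM in WT libraries. NK cell markers were higher for 7 of 7 (81.7 to 84.9 against 33.3 to 37.2 CPM), as were those of conventional dendritic cells for 7 of 7 (144 to 154 against 91.6 to 104 CPM) and of fibroblasts for 5 of 5 (739.7 to 819 against 569 to 616 CPM). Of the neutrophil markers tested, 3 of 5 were higher (29.3 to 30.4 against 17.9 to 19.8 CPM), with Ly6g at 0 in every library. Endothelial markers were higher for 2 and lower for 1 of 3 tested (116 to 119.7 against 49.7 to 57.8 CPM). Melanoma markers were lower for 6 of 7 (676 to 716 against 998 to 999 CPM), plasmacytoid dendritic cell markers for 2 of 5 (429 to 467 against 557 to 647 CPM) and B cell markers for 4 of 5, with 1 higher (19.9 to 22.1 against 30.9 to 32.5 CPM). Log2 fold changes of the B cell markers ran from -6.47 to 0.39, with a median of -5.01, a larger fall than that of their sum. Of the 8 macrophage markers, Itgam was higher and Cd68 lower.

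**Figure D4:**
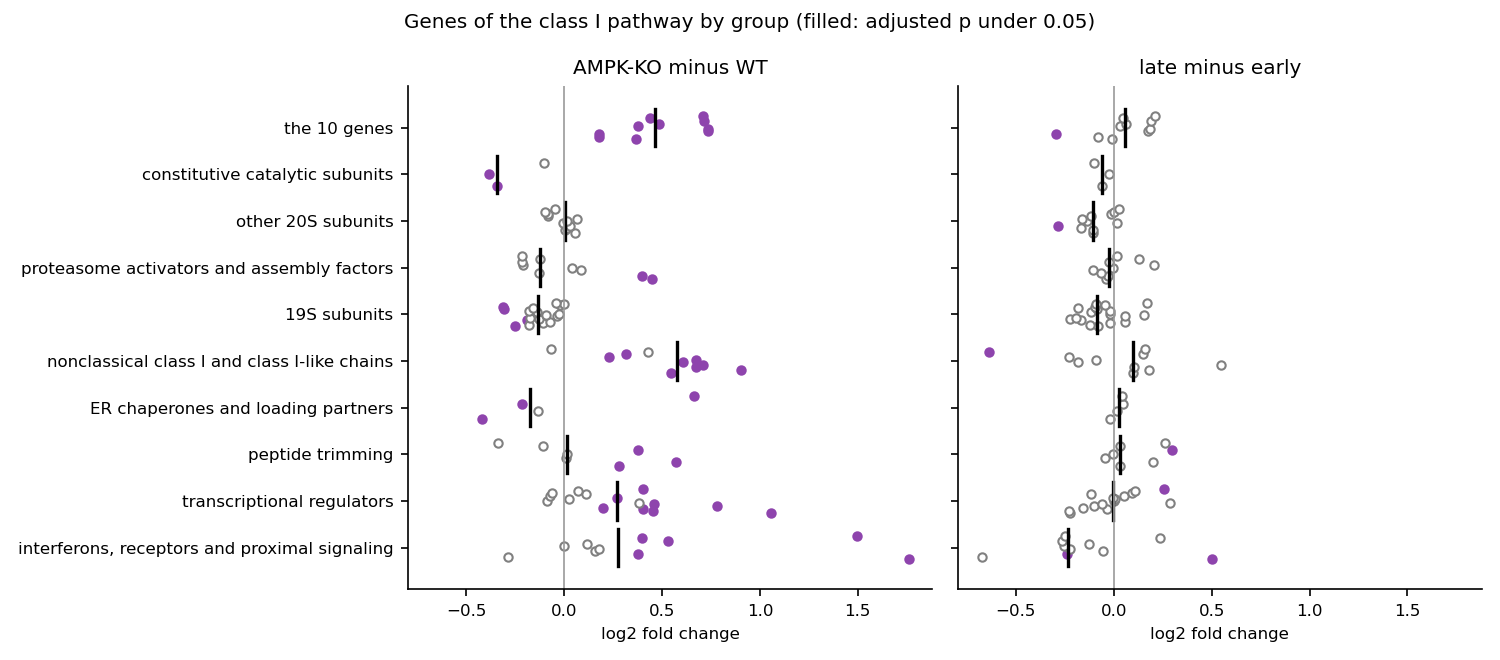
Log2 fold change (x axis) of each gene tested (points) in 10 groups of class I pathway genes (y axis), in AMPK-KO minus WT (left) and late minus early (right); filled points had an adjusted p under 0.05, and black bars mark each group's median. On the left the 10 genes and the nonclassical chains sit to the right of 0 (medians 0.46 and 0.58), the other 20S subunits on 0 and the constitutive catalytic subunits to the left.

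The second comparison set late (day 15) against early (day 8) TAMs for the same genes. By the Y-linked counts above, tumor stage and the sex of the mice cannot be told apart in it. B2m was the only one of the 10 called, and it was lower in late TAMs by a log2 fold change of -0.29 ± 0.06 (adjusted p = 0.0171, edgeR). Over all 17630 genes tested, 4.88% were called lower, 4.31% higher and 9.18% in either direction, so that 1 of 10 is near the background. Early and late libraries did not overlap for B2m (lower) or for Tap1 and Nlrc5 (higher), against 31.2% of all genes (15.6% in each direction). With DESeq2, 1287 of all genes were called higher and 1363 lower, and 4313 had an unadjusted p under 0.05 with edgeR. The median log2 fold change was 0.05 over the 10 genes and 0.00 over all genes.

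B2m had 3959.6, 3995 and 3919.8 CPM in early and 3065, 3272 and 3343 CPM in late libraries, and all late libraries were lower. Its call was lost without early 2 (adjusted p = 0.0629), late 1 (0.0679), late 2 (0.09) or late 3 (0.0624), with log2 fold changes of -0.32 to -0.26 (edgeR). Its heavy-chain partners did not pass the test. H2-K1 had 2981, 2794 and 2422 CPM in early and 2751, 2715 and 2683 CPM in late libraries (log2 fold change -0.01, 95% interval -0.19 to 0.17). H2-D1 had 3757, 3304 and 2732 CPM in early and 3077, 3118 and 3057 CPM in late libraries (-0.08, interval -0.31 to 0.15). In both, the late libraries fell within the range of the early ones.

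Tap1 had 451, 389 and 368 CPM in early and 456, 454 and 452 CPM in late libraries. The late libraries were nearly equal and stood just above early 1 (log2 fold change 0.17 ± 0.08, adjusted p = 0.238, edgeR). Tap2 had 210.1, 169.6 and 141 CPM in early and 198, 199 and 196 CPM in late libraries (0.19, 95% interval -0.09 to 0.46). Tapbp stayed between 443 and 484 CPM in all 6 libraries (0.03, interval -0.12 to 0.18).

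Psmb8 had 374, 297 and 280.4 CPM in early and 328, 331 and 334 CPM in late libraries (0.06, interval -0.17 to 0.29). Psmb9 had 168, 147 and 127 CPM in early and 169.9, 175 and 159 CPM in late libraries (0.19, interval -0.04 to 0.42). Psmb10 ranged from 140.0 to 185 CPM in early and from 165 to 179 CPM in late libraries (0.05, interval -0.18 to 0.27). Nlrc5 had 113, 126 and 119 CPM in early and 158, 127 and 129 CPM in late libraries, with late 1 standing apart and late 2 just above early 2 (0.21 ± 0.10, adjusted p = 0.214, edgeR). For all 10 genes the upper end of the interval was at most 0.46.

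The early libraries were spread. Early 1 was the highest early library for 8 of the 10 genes and early 3 the lowest for 8, and the coefficient of variation over 3 libraries had a median of 12.4% in early against 1.33% in late, 7.46% in WT and 4.69% in AMPK-KO libraries. Without early 1, Tap1 (0.27, adjusted p = 0.0181), Tap2 (0.35, 0.0236) and Psmb9 (0.30, 0.0377) were called higher in late TAMs and B2m lower. Without early 2 or any single late library, 0 of the 10 were called by edgeR.

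The ratio of Psmb9 to Psmb6 was 0.428, 0.414 and 0.417 in early and 0.505, 0.490 and 0.472 in late libraries. All late libraries were higher, by 1.16 times (exact permutation p = 0.1, adjusted p = 0.15), against 2.14 times in AMPK-KO TAMs. Psmb8 to Psmb5 overlapped between early (0.780, 0.746 and 0.881) and late (0.931, 0.848 and 0.824) libraries (exact permutation p = 0.3), as did Psmb10 to Psmb7 (p = 0.8 in the same exact test). The ratio of H2-K1 to B2m did not overlap, at 0.220, 0.205 and 0.181 in early and 0.263, 0.243 and 0.235 in late libraries (exact permutation p = 0.1, adjusted p = 0.267 over 4 tests). H2-D1 to B2m overlapped (exact permutation p = 0.2).

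None of the 3 constitutive catalytic subunits, 9 activators and assembly factors or 4 loading partners was called by edgeR or DESeq2 (0 at an unadjusted p under 0.05 in each group). The 18 19S subunits had 0 calls by edgeR, 1 by DESeq2 and 2 at an unadjusted p under 0.05. Psma4 (-0.28) was the only other 20S subunit called of 11, Lap3 (0.30) the only trimming gene of 7 and Nfkb1 (0.26) the only regulator of 15. Irf1 (-0.23, 95% interval -0.49 to 0.03), Irf2 (-0.23, interval -0.39 to -0.07, adjusted p = 0.0794, edgeR) and Rfx5 (0.29, interval 0.05 to 0.52, adjusted p = 0.122, edgeR) did not pass the test. Of the 10 interferon, receptor and proximal signaling genes, edgeR called 1 higher and 1 lower and DESeq2 1 higher and 4 lower, 7 had an unadjusted p under 0.05, and the median log2 fold change was -0.23. Ifng rose from 7.67, 6.91 and 7.54 CPM to 10.1, 10.6 and 10.6 CPM (0.50 ± 0.12, adjusted p = 0.0274, edgeR), and Ifngr1 was lower (-0.24 ± 0.06, adjusted p = 0.0474, edgeR). Cd1d1, which presents lipids and is named after its value was seen, was the single class I-like chain called of 10 (-0.64).

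Markers of other cells also moved between stages, and their part in the values above was not tested. NK cell markers were lower in late TAMs for 5 of 7 by edgeR and for 7 by DESeq2 (39.7 to 54.2 against 89.2 to 103 CPM), melanoma markers for 5 of 7 (767 to 1203 against 1663 to 1807 CPM), fibroblast markers for 3 of 5 (392 to 553 against 798 to 876 CPM), neutrophil markers for 2 of 4 tested (30.5 to 41.9 against 43.5 to 51.0 CPM) and endothelial markers for 1 of 4 (76.5 to 80.2 against 83.3 to 87.8 CPM). T cell markers were higher for 2 of 8 by edgeR and for 6 by DESeq2 (186 to 221 against 155 to 167 CPM) and B cell markers for 3 of 5 (57.5 to 82.9 against 37.3 to 41.8 CPM). Conventional dendritic cell markers were higher for 1 and lower for 2 of 7 (103 to 111 against 102 to 115 CPM), and 0 of 5 plasmacytoid dendritic cell markers were called (477 to 489.8 against 338 to 570.1 CPM, 0 at an unadjusted p under 0.05). Of the 8 macrophage markers, C1qa was higher by edgeR, and 3 were by DESeq2.

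Likeness to the set was measured over the 12 libraries as the root mean square distance from the mean profile of the 10 genes, on log2 CPM centred within each table. The nearest of the other genes were Hk3 (0.04), a hexokinase gene, Icam1 (0.05), an adhesion molecule gene, Myd88 (0.05), an adaptor gene of Toll-like receptors, and Psme1 (0.05), followed by Ctsh, Tmem51, Irf8 and Cxcl10 (0.05 to 0.06). The median distance over 16812 genes was 0.29. Of the 10 genes, H2-K1 (0.05) and Psmb8 (0.06) lay nearest to their own mean and B2m (0.18) and Nlrc5 (0.16) farthest.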

How the data were processed

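Per the labels and the study's methods, TAM RNA was sequenced, mapped to the mouse genome with HISAT2 and counted per gene with featureCounts. The authors deposited raw counts in 2 tables, without normalization. The submitters' notes name mm10 and GRCm38, and versions and multi-mapping settings are not given in the sources used here. All count columns were mapped to a sample (0 were left unused).

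Each table was fitted apart with edgeR 4.0.16 in R 4.3.3 (filterByExpr, TMM, glmQLFit, glmQLFTest, no covariates), with Benjamini-Hochberg adjustment over all genes tested. Genes were called at an adjusted p under 0.05. The SE was the absolute log2 fold change over the square root of F, and 95% intervals used the fit's degrees of freedom. CPM were scaled by TMM, and exon lengths came from GENCODE M21 (for H2-D1 under another version number). Ratios were compared with two-sided exact permutation tests in scipy 1.17.1. Alternatives were RLE factors, library totals, DESeq2 1.42.0, other filters (no filter beyond 1 count, or 10 counts in every library), a block for the replicate number and leaving out each library in turn. The edgeR and DESeq2 fits were tested on simulated data, in which the changes put in were larger than those of the 10 genes.

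The 10 genes, the gene lists and the markers were chosen with earlier results of these data known. Named beyond the 10 were at most 4 called genes per list by smallest adjusted p, Psmb5, Psmb6, Psmb7, Irf1, Irf2, Rfx5, Ifng, Prkaa1 and Lyz2, and the 8 genes nearest in profile. A further gene that the naming rule listed is not reported here. Promoters came from RefSeq.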

Additional observations from a re-analysis of the deposited data

How the results depend on the processing

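Between AMPK-KO and WT TAMs, the 10 log2 fold changes kept their direction under all alternatives, and 109 of 120 alternative values kept their call, the 11 exceptions being those of H2-D1 and B2m given above. The genes called, 3693, numbered 2414 to 4039 with 1 library left out (2414 without WT3, 2419 without KO2). Between late and early TAMs, the genes called, 1619, numbered 2650 with DESeq2, 936 without the filter and 653 to 2835 with 1 library left out. They were 2835 without early 1, 680 without early 2, and 853, 682 and 653 without late 1, late 3 and late 2. Of the 10 genes, 0 to 4 were then called. With 1 library left out, late against early log2 fold changes ranged from -0.0893 to 0.0611 for H2-K1, -0.196 to 0.0337 for H2-D1, -0.00128 to 0.0674 for Tapbp, -0.0202 to 0.199 for Psmb8 and -0.0607 to 0.137 for Psmb10, and with library totals H2-K1 was at 0.0170. The late minus early difference in the log2 ratio of Psmb10 to Psmb7 then ranged from -0.0199 to 0.262. The AMPK-KO minus WT difference in the log2 ratio of H2-D1 to B2m ranged from -0.0409 to 0.0550. The cause was not tested. Adding 0.5 to each count changed the direction of no difference in ratio.

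Whether same-numbered libraries were paired was not settled. Over all genes, deviations of same-numbered libraries correlated at -0.03 to 0.16 and those of differently numbered ones at -0.18 to 0.17. With the replicate number as a block, 3862 and 1417 genes were called, and 10 and 1 of the 10 genes.

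The depth of 71019494 counts or more per library left no level of the 10 genes limited by counting. With 3 libraries a group, the exact permutation tests of ratios could not go below p = 0.1.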
